A study of Arabidopsis thaliana with 12 samples.

Results

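The comparison described here is the response of wild-type Arabidopsis thaliana seedlings to 12 h at 27 °C. Its members were all genes with at least 1 TPM (transcripts per 1000000 transcripts) in at least 3 of the 6 wild-type libraries, which held for 19208 of the 27655 genes in the table. Both groups were whole seedlings of the wild type Columbia (Col), 7 days old and raised at 21 °C in short days of 8 h light and 16 h dark. At ZT1 (1 h after lights on) the seedlings of one group were moved to 27 °C and those of the other stayed at 21 °C, and both were collected at ZT13, when it was dark. Each group had 3 libraries. Neither group carried a mutation or a transgene. The same experiment was done on fve-4, a mutant of the histone-binding protein FVE, and those 6 libraries enter below only to estimate the spread and to show where the wild type differed. The labels do not say whether libraries came from separate cultures, so p-values measure the spread between libraries, which may be technical.

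Plants that are warmed without being heat-stressed grow longer stems and petioles, a response called thermomorphogenesis. In Arabidopsis the photoreceptor phyB and the evening complex of the clock hold back PIF4, a basic helix-loop-helix factor, in cool conditions, and PIF4 switches on auxin synthesis and growth genes in warmth. The histone variant H2A.Z is known to sit at many warmth-responsive genes, and the series asks how FVE and the deacetylase HDA9 take part in this. In short days the seedlings had been in the dark for several hours at harvest, so genes of the night, of stored carbon and of light signalling are all part of what is measured.

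Warmth moved most of the transcriptome by small amounts and a few groups by large ones. Sugar starvation genes, PIF factors, evening clock genes, aquaporins and wall-loosening XTH enzymes rose. Aliphatic glucosinolate synthesis, iron uptake, sulfate assimilation and DNA replication genes fell. Each gene was tested with limma on log2(TPM + 1), and calls were made where the p, adjusted over all genes by Benjamini-Hochberg, lay under 0.05. Of the 19208 genes, 12221 (63.6%) were called, 7269 (37.8%) higher and 4952 (25.8%) lower at 27 °C. In 13022 genes (67.8%) the libraries of the 2 groups did not overlap. Far fewer genes were also changed at least 2-fold, 1076 (5.60%) higher and 760 (3.96%) lower, and 30 rose and 36 fell at least 8-fold. Any count of called members below has to be read against these shares. Over all genes the median change was 0.09, and the called genes had medians of 0.54 (higher) and -0.56 (lower). Higher calls made up 59.5% of all calls as deposited, but 49.8% after rescaling the libraries by median ratios, 50.8% after quantile normalization and 50.1% by limma-voom on recovered reads. Every change printed is the mean log2(TPM + 1) at 27 °C minus that at 21 °C with its standard error (SE), a scale that understates the change of genes near 1 TPM.

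The table allowed whole reads to be recovered behind the TPM values, from 11454833 to 14554413 per wild-type library. The first principal component held 83.5% of the variance among the 6 libraries and parted the temperatures. The second held 6.8%, and on it Col 27 °C replicate 3 stood at -24.77, far from the values of 12.69 and 14.24 of replicates 1 and 2. That library had 257 genes at least 2-fold away from the other two of its group, against 34 to 74 for the remaining 5 libraries. Without it 7074 genes were called higher and 4429 lower. Results that rest on it are marked below for many genes and lists, though not for every count. The TPM rest on the gene span including introns, so levels should not be compared between genes whose introns differ in length.

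**Figure D1:**
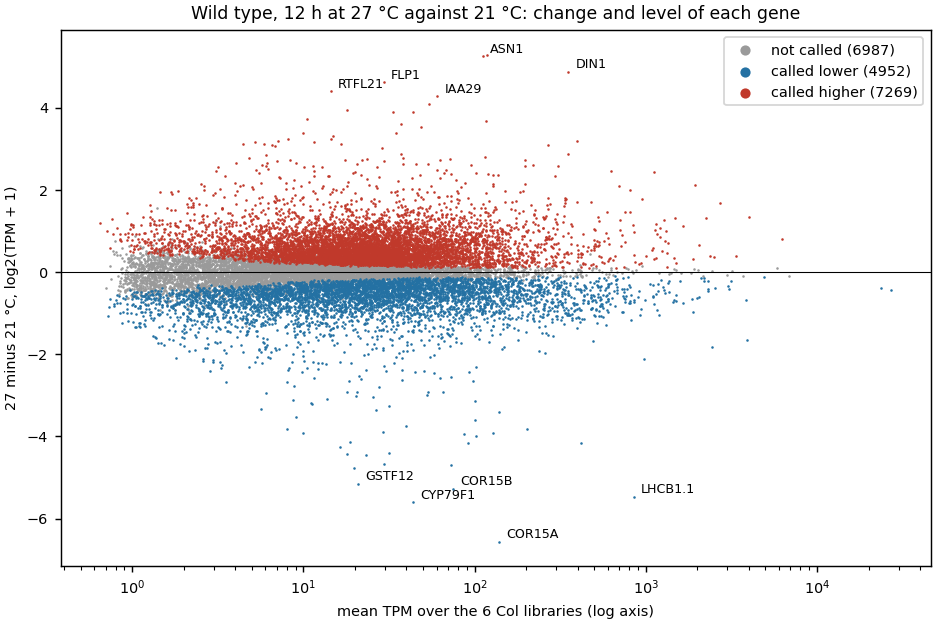
Change in wild type on warming (27 °C minus 21 °C, log2(TPM + 1), vertical axis) against the mean TPM of the 6 libraries (log axis) for the 19208 genes tested, coloured by call. Most called genes lie close to 0, and those changed at least 2-fold number 1076 above and 760 below.

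The largest rise among genes with a symbol was that of ASN1 (AT3G47340), an asparagine synthetase induced by darkness and low sugar. It was at 4.90, 5.03 and 4.22 TPM in the libraries kept at 21 °C and at 207, 227 and 219 TPM in the warmed ones, a change of 5.26 ± 0.24 (SE; adjusted p = 8.56e-10). DIN1 (AT4G35770), a senescence- and dark-induced gene, followed at 20.0, 23.9 and 22.6 TPM against 732, 708 and 604 TPM. In both genes every warmed library lay far above every control. FLP1 (AT4G31380), an FPF1-like protein, rose from 0.958, 0.868 and 2.47 TPM to 45.0, 64.9 and 62.3 TPM. RTFL21 (AT1G67265), a member of the small ROTUNDIFOLIA-like peptides, went from 0.800, 0.484 and 0 TPM to 31.1, 30.8 and 23.7 TPM. PKS4 (AT5G04190), a phytochrome kinase substrate of hypocotyl bending, went from 0.722, 0.467 and 0.621 TPM to 21.6, 19.3 and 20.0 TPM. All 3 were below 1 TPM in each control library except FLP1 in replicate 3, and their groups did not overlap. COL5, a CONSTANS-like factor, rose by 3.67 ± 0.14, and SAUR22, an auxin-induced growth protein, by 3.96 ± 0.31.

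At the other end stood the cold-regulated genes COR15A, COR15B and KIN1, the glucosinolate gene CYP79F1, the light-harvesting gene LHCB1.1 and the anthocyanin genes GSTF12, DFR and LDOX. KIN1 was at 57.6, 57.5 and 57.5 TPM at 21 °C and at 2.28, 0.736 and 1.11 TPM at 27 °C, a change of -4.68 ± 0.29 (adjusted p = 1.07e-08). LDOX (AT4G22880), which makes anthocyanidins, was at 42.0, 43.3 and 49.5 TPM against 0.341, 1.87 and 1.38 TPM. CYP82C4 (AT4G31940), which hydroxylates the iron-mobilizing coumarins, fell from 37.3, 31.2 and 37.2 TPM to 1.51, 0.584 and 0.183 TPM. All 3 fell in each warmed library to a small remnant of the control level. COR15A and COR15B, the LHCB1 genes, and CYP79F1 with its neighbour CYP79F2 are near-identical copies, and KIN1 has one in KIN2, so reads may have been split between copies and single-gene values are uncertain.

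**Figure D2:**
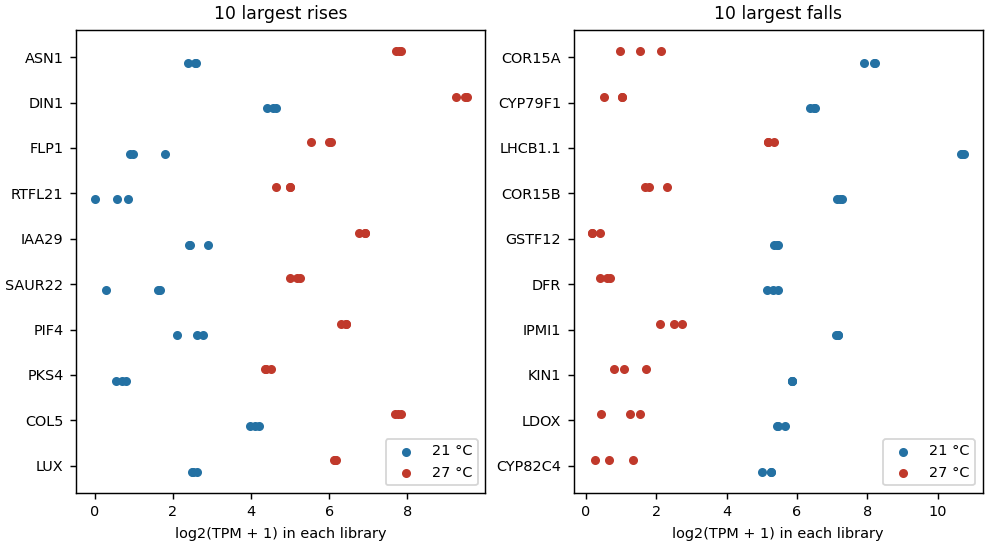
Expression, log2(TPM + 1), in each of the 6 wild-type libraries for the 10 largest rises (left) and the 10 largest falls (right) among called genes with a symbol, no overlap and enough expression. Each point is a library at 21 °C (blue) or 27 °C (red), and the colours lie apart in every gene shown.

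A handful of genes crossed the detection limit. Below 0.5 TPM in all 3 control libraries and at 5 TPM or more in all 3 warmed ones were ACS8, a synthase of the ethylene precursor, IAA6, an auxin-response repressor, and AT1G15840, an uncharacterized protein. ACS8 was at 0.259, 0.157 and 0.297 TPM against 9.91, 8.96 and 11.8 TPM (3.18 ± 0.27; adjusted p = 2.09e-07). IAA6 was at 0.305, 0.415 and 0.394 TPM against 5.60, 9.30 and 8.35 TPM. The reverse was seen in 6 genes. GSTF12, UF3GT and AT5MAT serve anthocyanin transport and decoration, FMO GS-OX1 and MYB76 aliphatic glucosinolates, and BHLH38 iron deficiency. UF3GT, a glycosyltransferase of anthocyanins, went from 21.2, 17.7 and 19.7 TPM to 0.307, 0.495 and 0.248 TPM, a change of -3.93 ± 0.17 (adjusted p = 6.94e-10).

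Promoters of genes from both ends of the response are shown because they carry the letters that basic helix-loop-helix and bZIP factors of light and warmth are known to bind. PIF5 and IAA6 are growth regulators that rose, MGL breaks down methionine and rose, and BHLH38 and UF3GT fell. Each sequence is the 250 bases before the annotated start of the gene, read 5′ to 3′ on the strand of the gene from the TAIR10.1 genome with its RefSeq annotation. The regions are chr3:21830838-21831087 (minus strand) for PIF5, chr1:24028580-24028829 (plus) for MGL, chr3:21085246-21085495 (minus) for BHLH38, chr5:21938397-21938646 (minus) for UF3GT and chr1:19673653-19673902 (minus) for IAA6. Capitals mark the G-box CACGTG in the first 4 and the PIF-binding E-box, CACATG or its complement CATGTG, in IAA6. Only the motif named for each gene is marked, so a CACATG in MGL stands in lower case.
PIF5: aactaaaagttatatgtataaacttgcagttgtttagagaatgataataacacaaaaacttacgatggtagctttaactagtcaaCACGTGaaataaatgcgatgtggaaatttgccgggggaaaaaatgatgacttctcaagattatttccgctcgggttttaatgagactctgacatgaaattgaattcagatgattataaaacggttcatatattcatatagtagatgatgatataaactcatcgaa
MGL: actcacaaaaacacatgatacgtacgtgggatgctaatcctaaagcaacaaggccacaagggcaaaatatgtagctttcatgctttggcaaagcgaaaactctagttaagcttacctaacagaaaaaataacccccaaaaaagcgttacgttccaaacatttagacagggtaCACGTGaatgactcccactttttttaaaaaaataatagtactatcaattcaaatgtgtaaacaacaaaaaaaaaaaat
BHLH38: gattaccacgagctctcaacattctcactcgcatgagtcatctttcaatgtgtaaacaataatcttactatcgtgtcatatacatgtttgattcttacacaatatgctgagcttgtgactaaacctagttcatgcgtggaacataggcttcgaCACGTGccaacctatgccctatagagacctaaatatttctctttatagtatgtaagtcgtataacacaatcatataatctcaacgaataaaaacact
UF3GT: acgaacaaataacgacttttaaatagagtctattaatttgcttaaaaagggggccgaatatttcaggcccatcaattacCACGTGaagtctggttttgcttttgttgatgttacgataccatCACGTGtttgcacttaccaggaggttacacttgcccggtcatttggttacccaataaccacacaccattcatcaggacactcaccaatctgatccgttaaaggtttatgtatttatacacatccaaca
IAA6: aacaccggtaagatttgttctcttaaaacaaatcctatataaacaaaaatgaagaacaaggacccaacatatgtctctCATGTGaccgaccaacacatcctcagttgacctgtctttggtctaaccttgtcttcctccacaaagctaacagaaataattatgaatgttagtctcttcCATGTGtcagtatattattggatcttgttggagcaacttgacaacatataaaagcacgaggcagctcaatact
The G-box begins 165 bases before the start in PIF5, 78 in MGL and 97 in BHLH38. UF3GT holds 2 of them, at 171 and 128 bases, and IAA6 holds 2 E-boxes, at 172 and 73 bases. The G-box is printed here for genes that rose and for genes that fell. These promoters were chosen because they hold the letters, so they do not show how common the motifs are.

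Over all 27443 promoters of this length, searched on both strands, the G-box stood in 6.49%. Among the 1070 promoters of genes called at least 2-fold higher it stood in 10.9% (95% Wilson interval 9.20 to 12.9%), against 7.24% (5.60 to 9.30%) of the 760 genes at least 2-fold lower and 6.91% (6.33 to 7.53%) of 6937 genes not called. The E-box CACATG was in 11.1% of all promoters, in 15.7% (13.6 to 18.0%) of those of raised genes, in 13.9% (11.7 to 16.6%) of lowered ones and in 11.1% (10.4 to 11.8%) of uncalled ones. Both motifs were thus more frequent before raised than before uncalled genes, and the G-box share of the genes at least 2-fold lower lay within counting error of the uncalled. For the G-box this did not hold among larger changes. It stood in 15% (9.31 to 23.3%) of the 100 genes at least 4-fold lower, above the uncalled share. Among the 133 genes at least 4-fold higher it stood in 9.77% (5.8 to 16%). That interval overlaps those of the 4-fold lower and of the uncalled genes, so no order between the directions is shown. The E-box stood in 19.5% (13.7 to 27.1%) of the genes at least 4-fold higher and in 15% (9.31 to 23.3%) of those lower. Intervals cover counting error only. The sugar starvation element TATCCA, known from genes induced when sugar runs out, was in 13.6% of all promoters, in 17.9% (15.7 to 20.3%) of raised, 11.6% (9.49 to 14.0%) of lowered and 13.9% (13.1 to 14.7%) of uncalled ones. The I-box GATAAG of light-regulated genes was in 12.3% of all, 16.4% (14.3 to 18.8%) of raised, 12.8% (10.6 to 15.3%) of lowered and 11.7% (11 to 12.5%) of uncalled promoters, and its complement CTTATC can overlap TATCCA. In the other direction, the site II element TGGGCC, common before ribosomal protein and cell division genes, was in 13.7% of all promoters and in 11.6% (9.81 to 13.6%) of raised and 12.6% (10.5 to 15.2%) of lowered against 15.7% (14.9 to 16.6%) of uncalled ones. Among genes called at under 2-fold it was in 18.1% (17.3 to 18.8%).

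The remaining 9 motifs had overlapping intervals in raised and uncalled genes. They were the evening element AAAATATCT (2.36% of all promoters), the CCA1 site AAAAATCT (6.69%), the heat shock element GAANNTTC (9.55%), the cold-response core CCGAC (12%) and the auxin response element TGTCTC (10.9%). The others were the W-box TTGACC (12.2%), the telo-box AAACCCTAA (2.61%), the E2F site TTTCCCGC (0.619%) and the mitotic core AACGG (20.6%). The heat shock element stood in 8.69% of raised and 9.49% of uncalled promoters. A match describes these letters in this window and is not evidence of binding.

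**Figure D3:**
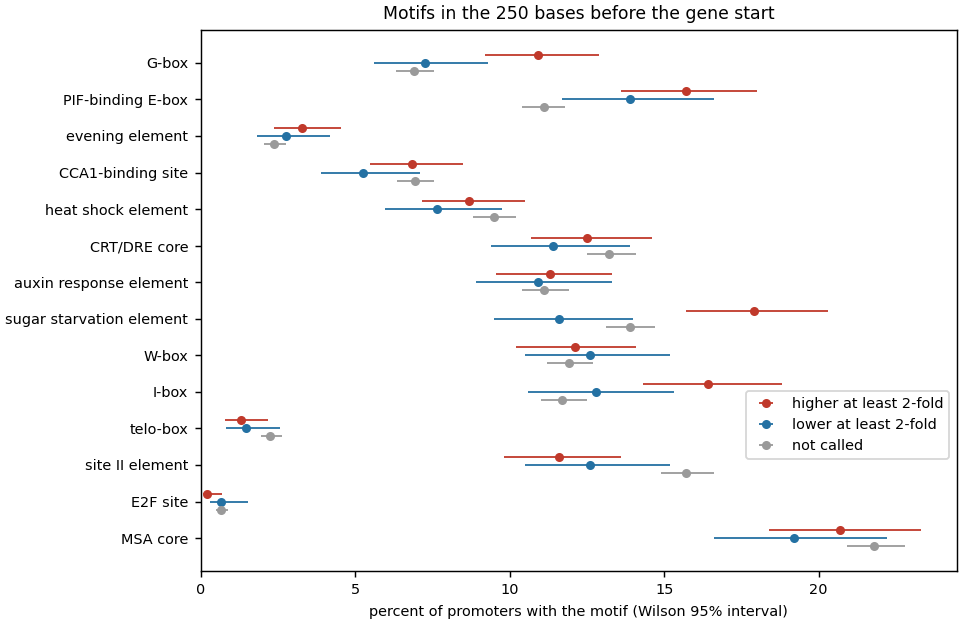
Percentage of promoters (250 bases before the gene start) that hold each of 14 short motifs, for genes called at least 2-fold higher, at least 2-fold lower, and not called in wild type at 27 °C against 21 °C. Bars are 95% Wilson intervals, and the G-box is at 10.9% in raised, 7.24% in lowered and 6.91% in uncalled genes.

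The growth-promoting PIF factors and the helix-loop-helix proteins that modulate them rose almost throughout. Of 13 tested, 12 rose and 0 fell, with a median of 1.63, and their summed level went from 166 to 190 TPM up to 481 to 510 TPM. PIF5, the close relative of PIF4, was at 4.53, 6.22 and 5.95 TPM against 49.9, 53.4 and 52.7 TPM (3.02 ± 0.15; adjusted p = 1.83e-09). PAR1, a helix-loop-helix protein that restrains PIFs, was at 8.21, 8.66 and 8.73 TPM against 47.6, 46.6 and 46.3 TPM. HFR1, another PIF inhibitor, rose by 2.26 and the shade marker PIL1 by 2.18, so factors that promote growth and factors that brake it moved together. PIF7, which acts in shade and in daytime warmth, was the exception with 6.86 and 7.07 TPM on average (change 0.05, not called).

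Photoreceptor genes rose, while HY5 and HYH, which promote development in light, fell. Of 15 genes of the photoreceptors and the COP1-HY5 module, 10 rose and 4 fell, with a median of 0.30. The rises numbered 8 or 9 without single wild-type libraries and 7 or 8 under the other scalings, where the median was 0.16 to 0.20. COP1 (0.17) lost its call without any single library except Col 21 °C replicate 1. PHYA, the far-red photoreceptor that builds up in darkness, was at 59.0, 58.4 and 56.2 TPM against 170, 181 and 166 TPM (1.56 ± 0.08; adjusted p = 1.56e-09), and the blue-light receptor CRY1 rose by 0.77. HYH, a bZIP factor that promotes light development beside HY5, was at 19.5, 13.9 and 15.5 TPM against 4.09, 3.77 and 2.84 TPM (-1.92 ± 0.21; adjusted p = 2.64e-06), and HY5 itself fell by 0.74. Of the 10 B-box zinc finger factors tested, 8 rose and 1 fell. BBX24, which restrains HY5, was at 6.66, 5.74 and 6.67 TPM against 34.5, 35.9 and 41.0 TPM, and BBX28 was at 0, 0.536 and 0.102 TPM against 5.78, 6.02 and 6.47 TPM. The one fall, BBX20 by 0.41, was small, and its call was lost without Col 21 °C replicate 1 (-0.40), Col 21 °C replicate 2 (-0.39), Col 27 °C replicate 2 (-0.37) or Col 27 °C replicate 3 (-0.31, adjusted p = 0.0864).

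Clock genes of morning and evening both stood higher at ZT13. Among 16 evening genes 14 rose and 0 fell (median 1.03), and among 9 morning genes with enough expression 6 rose and 0 fell (median 1.18). CCA1, LHY, LNK1, LNK3 and PRR9, which peak around dawn, were too low to be tested. GI, an evening gene that links the clock to flowering, was at 0.327, 0.377 and 0.537 TPM against 10.8, 11.2 and 12.2 TPM (3.13 ± 0.13; adjusted p = 5.81e-10). PRR7, a repressor of the morning loop, was at 1.16, 1.01 and 1.17 TPM against 11.8, 14.0 and 12.9 TPM. RVE7, a MYB-like relative of CCA1, rose by 2.66 ± 0.17. ELF4, which together with LUX and ELF3 makes up the evening complex, was at 76.8 and 74.0 TPM on average and was not called. In contrast, LUX rose by 3.60 ± 0.07 and ELF3 by 0.80. With only ZT13 sampled, a change of level and a shift of phase cannot be told apart.

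Hormone pathways moved in different directions. In gibberellin synthesis and inactivation 7 of 11 genes rose and 3 fell. The fall of KS (-0.33) lost its call without Col 21 °C replicate 2 (-0.24, adjusted p = 0.128), Col 27 °C replicate 1 or Col 27 °C replicate 2. That left 2 lower. The last synthesis step, GA3OX1 and GA3OX2, fell, GA3OX1 from 9.28, 8.91 and 8.61 TPM to 4.41, 3.43 and 2.93 TPM (-1.13 ± 0.15; adjusted p = 1.37e-05). The inactivating enzymes GA2OX4 and GA2OX6 rose by 1.89 and 1.03, and the earlier synthesis enzyme GA20OX2 rose by 0.94. Receptors and DELLA repressors rose in 7 of 8 cases, among them GAI, a DELLA protein, from 47.0, 47.6 and 47.0 TPM to 114, 112 and 119 TPM (1.27 ± 0.07; adjusted p = 6.55e-09). Of 19 ethylene genes 16 rose and 0 fell (median 0.68). These covered synthesis (ACS8, above), the transcription factors EIN3 (0.80) and EIL1 (0.88), and EBF2, the F-box protein that degrades them (0.85). EIN4, ACO1 and ACS6 were not called.

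Cytokinin response fell. Of 12 type-A response regulators and cytokinin oxidases tested 8 fell and 2 rose (median -1.01). ARR7, a type-A regulator induced by cytokinin, was at 37.6, 38.8 and 37.4 TPM against 4.90, 7.39 and 4.42 TPM (-2.59 ± 0.14; adjusted p = 4.06e-09), while ARR5 was not called at 11.9 and 10.3 TPM on average. The genes that rose were the cytokinin oxidases CKX5 and CKX6, which break the hormone down. Jasmonate genes had 9 of 20 lower and 2 higher. AOC2, an allene oxide cyclase of jasmonate synthesis, was at 165, 171 and 176 TPM against 29.7, 24.3 and 25.3 TPM (-2.65 ± 0.20; adjusted p = 8.77e-08). The exception with a large rise was ST2A (AT5G07010), a sulfotransferase that inactivates hydroxyjasmonate, at 5.15, 5.58 and 4.95 TPM against 65.4, 62.1 and 66.1 TPM (3.40 ± 0.10; adjusted p = 4.14e-11). Salicylic acid defence had 4 of 9 genes lower and 0 higher, led by PR5 (-1.95 ± 0.22), and 1 higher without Col 27 °C replicate 3. For abscisic acid 9 of 19 rose and 5 fell, but the median of 0.04 changed sign with the scaling. The 5 falls became 2 without Col 21 °C replicate 1 and 3 without Col 21 °C replicate 2 or Col 27 °C replicate 2. They numbered 4 without Col 27 °C replicate 1 or Col 27 °C replicate 3. Among these abscisic acid genes the transcription factor ABF3 rose by 1.47 and the phosphatase PP2CA fell by 0.89.

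XTH and aquaporin genes rose, whereas expansins did not rise as a group. Of 11 cellulose synthesis genes 6 rose and 1 fell, none of them 2-fold. Of 15 XTH genes, whose enzymes cut and rejoin xyloglucan, 11 rose and 2 fell (median 1.28), and all 11 rises were at least 2-fold. XTH22 was at 9.33, 9.62 and 10.5 TPM against 67.9, 70.1 and 61.6 TPM (2.64 ± 0.16; adjusted p = 8.58e-09), and XTH24 rose by 2.58. XTH20 went the other way, from 17.3, 15.8 and 14.8 TPM to 1.86, 2.2 and 0.628 TPM (-2.78 ± 0.21; adjusted p = 8.58e-08). Expansins, which loosen walls, were mixed, with 3 of 8 higher and 5 lower. EXPA8 rose from 36.2, 28.5 and 29.0 TPM to 153, 171 and 191 TPM, while EXPA10 fell by 1.01 ± 0.07. The 5 falls of expansins became 2 without Col 21 °C replicate 2, Col 21 °C replicate 3 or Col 27 °C replicate 2, and 3 without Col 27 °C replicate 1. Among the calls lost were the fall of EXPA5 (-0.27, and -0.17 without Col 27 °C replicate 1, adjusted p = 0.213) and the rise of EXPA6 (0.14), at 0.11 to 0.13 without Col 21 °C replicate 1 or 2 or Col 27 °C replicate 1 or 2. Of 18 aquaporins 12 rose and 2 fell, and their summed level went from 6280 to 6460 TPM up to 15000 to 15300 TPM. TIP2.1, a channel of the vacuole, was at 698, 745 and 711 TPM against 3093, 3103 and 3273 TPM (2.14 ± 0.11; adjusted p = 2.36e-09). TIP1.2 was at 1282, 1301 and 1276 TPM against 4140, 4153 and 4105 TPM. The fall of TIP2.2 (-0.54) lost its call without Col 27 °C replicate 3 (-0.30, adjusted p = 0.0506) or Col 21 °C replicate 1 (-0.46, adjusted p = 0.055), which left 1 aquaporin lower.

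Genes that darkness and low sugar are known to induce rose strongly. Of 20 dark-induced and sugar starvation genes 16 rose and 1 fell (median 1.15), and together they went from 1830 to 1990 TPM at 21 °C to 7020 to 7650 TPM at 27 °C. DIN10, a raffinose synthase-like dark-induced gene, was at 78.9, 88.2 and 79.7 TPM against 648, 637 and 566 TPM (2.89 ± 0.14; adjusted p = 1.30e-09). AKINBETA1, a subunit of the SnRK1 kinase that senses low energy, rose by 2.17, whereas the catalytic subunits KIN10 and KIN11 were not called (0.07 and -0.03). The member that fell was BZIP11, whose translation is repressed by sucrose, from 46.1, 47.4 and 49.5 TPM to 20.1, 24.1 and 22 TPM (-1.08 ± 0.08; adjusted p = 5.41e-08). Class II trehalose phosphate synthases, sugar-responsive relatives of the enzyme TPS1, rose in 6 of 7 cases, TPS8 from 35.7, 30.6 and 32.6 TPM to 127, 131 and 125 TPM. TPS5 was the member that fell (-0.31 ± 0.08). STP1, a hexose importer repressed by sugar, was at 54.3, 48.3 and 50.3 TPM against 350, 344 and 341 TPM (2.74 ± 0.11; adjusted p = 4.69e-10).

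Genes for using amino acids as fuel rose as well. Of 23 amino acid breakdown genes 20 rose and 2 fell (median 0.67). BCAT2, which starts the breakdown of branched-chain amino acids in mitochondria, was at 3.46, 2.39 and 2.14 TPM against 30.6, 31.8 and 28.9 TPM (3.12 ± 0.27; adjusted p = 3.14e-07). MCCA, a subunit of the leucine-degrading methylcrotonyl-CoA carboxylase, was at 18.7, 21.7 and 20.4 TPM against 107, 122 and 110 TPM. MGL, whose promoter is printed above, was at 17.0, 18.1 and 16.7 TPM against 98.6, 109 and 99.8 TPM (2.5 ± 0.11; adjusted p = 9.89e-10). In each the groups were far apart. The members that fell were P5CDH of proline breakdown (-0.62) and AT5G09300 (-0.89). Autophagy genes rose in 10 of 13 cases with a smaller median of 0.42, ATG8B, which coats autophagosomes, from 13.8, 11 and 14.2 TPM to 26.2, 29.4 and 30.3 TPM.

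Starch genes of synthesis and of breakdown fell. Of 17 synthesis genes 13 fell and 2 rose (median -0.44; 1 rose without Col 21 °C replicate 1, Col 21 °C replicate 3 or Col 27 °C replicate 3), led by APL3, a large subunit of ADP-glucose pyrophosphorylase (-1.04 ± 0.13), and of 17 breakdown genes 9 fell and 2 rose (median -0.20). The breakdown genes that rose were BAM4 (1.13 ± 0.09) and BAM9 (0.64 ± 0.07), beta-amylase family members without known catalytic activity. The maltose exporter MEX1 fell by 0.93 ± 0.09. Sugar transporters were split, with 5 of 15 higher and 7 lower and a median whose sign changed with the scaling. SUC1, a sucrose importer, fell by 1.19 ± 0.07 and SWEET17, a fructose channel of the vacuole, by 1.2 ± 0.10.

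**Figure D4:**
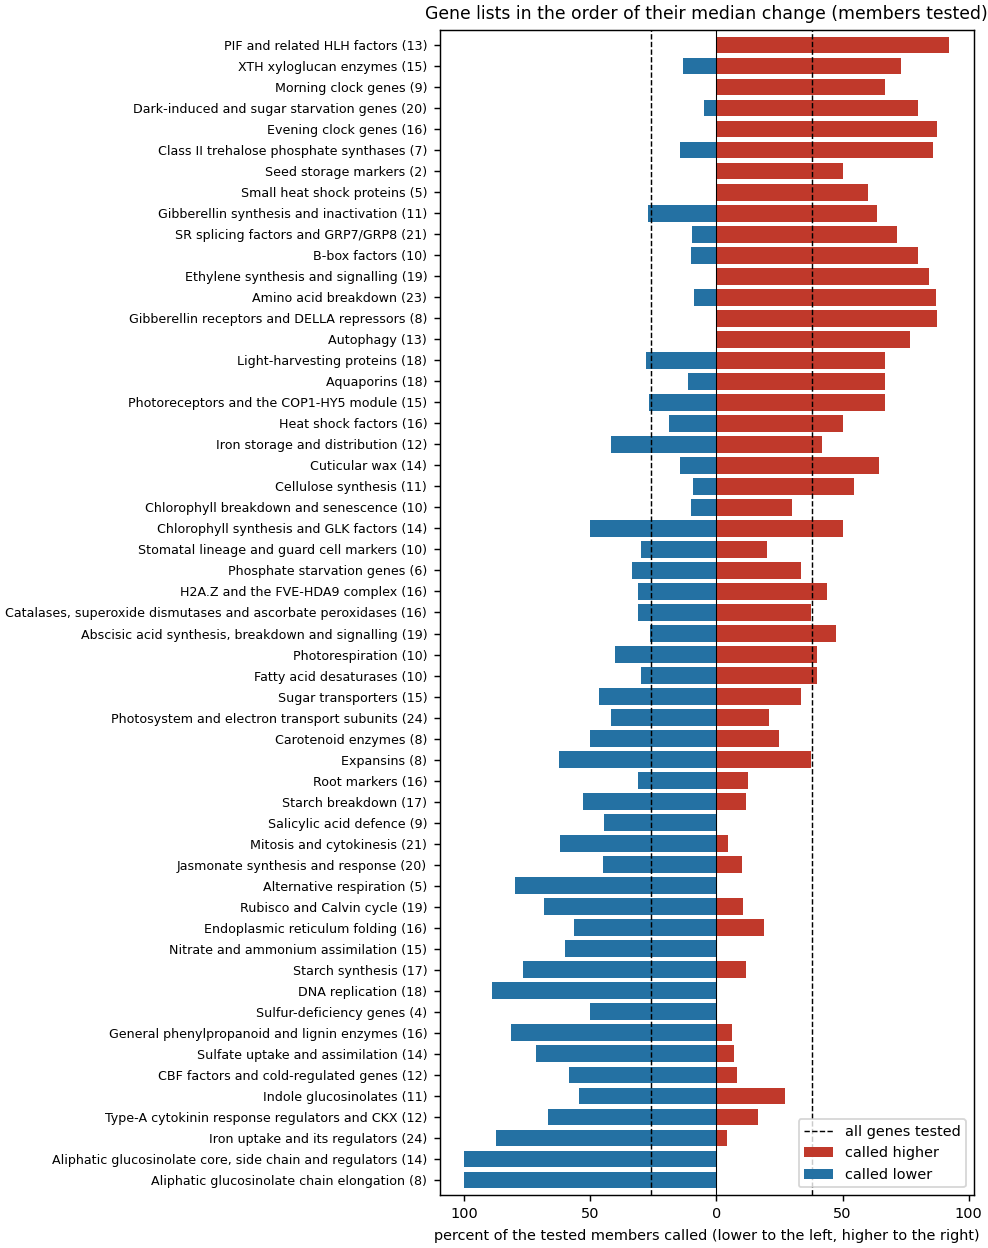
Percentage of the tested members of each of 55 gene lists that were called higher (red, to the right) or lower (blue, to the left) in wild type at 27 °C against 21 °C, in the order of the lists' median change, with the number tested in brackets. Dashed lines mark all genes tested, 37.8% higher and 25.8% lower; aliphatic glucosinolate lists reach 100% lower and PIF factors 92.3% higher.

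Most tested genes of nitrogen and sulfur assimilation fell. For nitrate and ammonium 9 of 15 genes fell and 0 rose, among them NIR1, nitrite reductase, from 508, 517 and 508 TPM to 236, 216 and 235 TPM (-1.15 ± 0.05; adjusted p = 1.14e-09). ASN2, the asparagine synthetase that is not dark-induced, fell by 1.15 ± 0.06 while ASN1 rose. For sulfate 10 of 14 fell and 1 rose (median -0.82), the rise being SULTR2.1 (0.26), which was not called without Col 27 °C replicate 3 (0.18, adjusted p = 0.0603). APR1, which reduces activated sulfate, was at 89.7, 99.2 and 105 TPM against 18.9, 19.3 and 13.4 TPM (-2.46 ± 0.14; adjusted p = 4.33e-09). APK1 and APK2, the kinases that supply active sulfate to glucosinolates, fell by 2.0 and 2.43.

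Every tested gene of aliphatic glucosinolate synthesis was lower. These sulfur-rich defence compounds are built from methionine whose side chain is first lengthened. In chain elongation 8 of 8 fell at least 2-fold (median -3.80), their summed level going from 1020 to 1070 TPM down to 132 to 146 TPM, and in the core pathway, side chain steps and MYB regulators 14 of 14 fell (median -2.76). BCAT4, which removes the amino group of methionine at the first step, was at 58.1, 63.7 and 60.8 TPM against 2.91, 1.44 and 1.65 TPM (-4.40 ± 0.34; adjusted p = 8.83e-08). IPMI1, an isomerase subunit of chain elongation, was at 142, 138 and 143 TPM against 5.69, 4.72 and 3.29 TPM. GSTU20, which joins glutathione to the intermediate, was at 764, 812 and 804 TPM against 52.7, 40.4 and 39.5 TPM (-4.15 ± 0.15; adjusted p = 2.15e-10). Among the regulators MYB29 and MYB76 fell by 3.1 and 2.41, and MYB28, the main activator, by 0.96 only. Indole glucosinolates, made from tryptophan, were less uniform, with 6 of 11 lower and 3 higher. CYP79B2 and CYP83B1 of their core pathway fell by 1.56 and 1.47, while IGMT1, a methyltransferase of the indole ring with near-identical copies, rose by 1.41 ± 0.12, and the regulator MYB51 by 0.46.

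Phenylpropanoid enzymes, which feed lignin and flavonoids, fell in 13 of 16 cases and rose in 1 (median -0.72). The falls numbered 11 to 14 without single wild-type libraries, with 11 without Col 21 °C replicate 2 or Col 27 °C replicate 3. PAL1, which opens the pathway, was at 133, 146 and 141 TPM against 58.2, 58.9 and 40.4 TPM (-1.42 ± 0.14; adjusted p = 1.12e-06), and 4CL3, the ligase isoform of the flavonoid branch, fell by 1.95 ± 0.14. AT5MAT (AT3G29590), which attaches malonate to anthocyanins, was at 19.0, 15.1 and 13.8 TPM against 0.388, 0.188 and 0 TPM. The single call above 0, HCT (0.15), was lost without Col 21 °C replicate 1, Col 21 °C replicate 3, Col 27 °C replicate 1 or Col 27 °C replicate 2, where it was 0.12 to 0.15.

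Iron uptake genes made up the other broad fall. Roots of Arabidopsis take up iron by acidifying the soil, secreting coumarins, reducing iron at the surface with FRO2 and importing it through IRT1. The factor FIT, listed as FRU in the annotation, switches these genes on together with the helix-loop-helix factors BHLH38, BHLH39, BHLH100 and BHLH101. Of 24 genes tested 21 fell and 1 rose (median -1.54), and the summed level went from 1100 to 1130 TPM down to 517 to 587 TPM. IRT1 was at 180, 146 and 159 TPM against 19.7, 16.0 and 2.33 TPM (-3.94 ± 0.48; adjusted p = 8e-06). FRO2 was at 40.8, 35.5 and 33.9 TPM against 6.49, 5.55 and 1.45 TPM (-2.93 ± 0.32; adjusted p = 2.39e-06). In both the warmed libraries were all below the controls, and Col 27 °C replicate 3 was the lowest. Among the regulators, FIT was at 18.9, 14.5 and 16.3 TPM against 6.99, 4.84 and 2.28 TPM. BHLH38, whose promoter is printed above, was at 6.82, 6.18 and 7.4 TPM against 0.279, 0.405 and 0 TPM (-2.68 ± 0.20; adjusted p = 8.16e-08). BHLH39 fell by 2.68 and BHLH100 by 2.32, whereas BHLH101 was not called (-0.17). Leaving out Col 27 °C replicate 3 left 18 of the 24 lower and 1 higher, with a median of -1.29.

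The shoot-side iron genes moved too. OPT3, a transporter of the phloem that reports shoot iron to the root, was at 263, 275 and 276 TPM against 89.2, 79.1 and 88.5 TPM (-1.66 ± 0.07; adjusted p = 4.23e-10). The uptake list's only rise was FRO3, a mitochondrial reductase, from 21.7, 23.0 and 21.8 TPM to 43.4, 47.3 and 41.9 TPM (0.96 ± 0.07; adjusted p = 7.14e-08). In iron storage and distribution 5 of 12 rose and 5 fell (6 and 4 without Col 27 °C replicate 3). FER1, the iron-induced ferritin, rose from 61.9, 62.8 and 60.1 TPM to 159, 176 and 182 TPM (1.47 ± 0.11; adjusted p = 6.21e-08). The nicotianamine synthase NAS4, which makes an iron chelator and has close copies, fell from 64.6, 62.9 and 69.2 TPM to 10.7, 9.06 and 9.65 TPM. VTL1, a vacuolar iron transporter-like protein, fell by 0.82, but by 0.55 without Col 27 °C replicate 3 (adjusted p = 0.0731) and by 0.63 without Col 21 °C replicate 1 (adjusted p = 0.0762).

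Root markers were measured beside these genes, because in bulk seedlings fewer cells of a type and less RNA per cell cannot be told apart. Of 16 root markers tested 2 rose and 5 fell (median -0.20), and none of the 18 listed was at 0 in all 6 libraries. Their summed level was 226.1, 209.8 and 201.9 TPM at 21 °C and 203.7, 213.5 and 147.8 TPM at 27 °C, so the groups overlapped and Col 27 °C replicate 3 was the lowest. Without that library 3 rose and 4 fell, and without Col 21 °C replicate 1 the falls numbered 3. Root hair genes fell most among them, and here Col 27 °C replicate 3 weighed. EXPA7, an expansin of root hairs, fell by 1.3, and by 0.78 without it (adjusted p = 0.0152). The call of PRP3, a root hair wall protein, was lost without it (-0.81 to -0.41, adjusted p = 0.0964) and without Col 21 °C replicate 1 (-0.75, adjusted p = 0.0702). Among endodermal markers SCR and CASP5 rose by 0.38 and 1.0, while CASP1 (-0.21), CASP2 (0.30) and CASP4 (-0.36) were not called. CASP1 was called lower without Col 27 °C replicate 2 (-0.33, adjusted p = 0.0184) and CASP2 higher without Col 27 °C replicate 3 (0.49, adjusted p = 0.00212). The part of root content in the iron result was not tested.

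**Figure D5:**
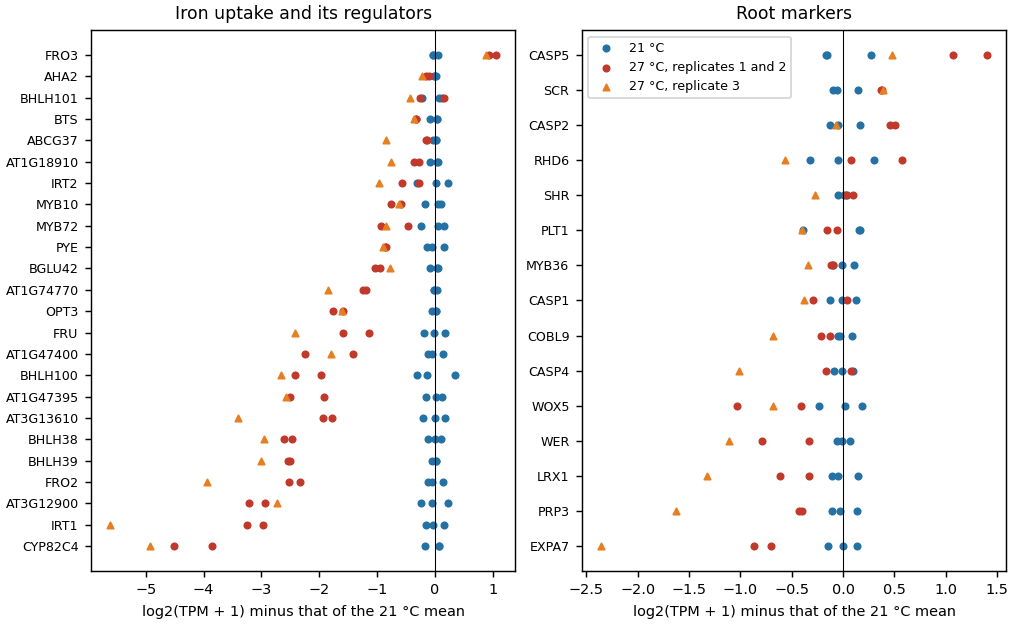
Expression of tested iron uptake genes (left) and all but 1 of the tested root markers (right) per wild-type library, as log2(TPM + 1) minus the log2 value of the 21 °C mean. Points are libraries, replicate 3 at 27 °C is drawn as a triangle, and FRU is FIT. Most iron genes lie left of 0 in all 3 warmed libraries, while for many root markers replicates 1 and 2 overlap the controls and replicate 3 lies furthest left.

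In photosynthesis, members of 1 family moved in opposite directions. Of 18 light-harvesting genes 12 rose and 5 fell. LHCB1.1 was at 1613, 1724 and 1661 TPM against 39.5, 34.9 and 35.4 TPM (-5.47 ± 0.08; adjusted p = 1.92e-14), and its near-identical neighbours LHCB1.2 and LHCB1.3 fell by 1.66 and 0.43. LHCB1.5 rose by 0.82 ± 0.10. The sum over all 18 went from 56200 to 59500 TPM to 50400 to 54600 TPM, so the total of the family fell far less than LHCB1.1. LHCB2.2 was at 23.2, 26.0 and 28.7 TPM against 158, 159 and 173 TPM, and LHCB4.2, an antenna protein of photosystem II, at 296, 339 and 332 TPM against 1311, 1265 and 1335 TPM. The fall of LHCB1.3 became 0 after quantile normalization, as did that of RBCS1A. That step gives a gene that keeps its rank the same value in every library, and LHCB1.3 was the most abundant gene in each. It therefore cannot show a change for such genes and does not bear on whether they fell.

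Calvin cycle genes fell in 13 of 19 cases and rose in 2 (median -0.36), and photosystem subunits fell in 10 of 24 and rose in 5 (median -0.05). RBCS1A, a gene of the Rubisco small subunit, was at 26710, 26050 and 27660 TPM against 19550, 19840 and 22380 TPM (-0.38 ± 0.06; adjusted p = 1.18e-04), and CP12-2, a dark inhibitor of the cycle, fell by 1.03 while CP12-1 rose by 0.33. Chlorophyll synthesis was evenly split, with 7 of 14 higher and 7 lower, HEMA1 of the first committed step rising by 0.98 and CHLI1 of the magnesium chelatase falling by 0.91. Photorespiration had 4 of 10 higher and 4 lower. For both the median changed sign with the scaling. Of 8 carotenoid genes 2 rose and 4 fell, and of 10 genes of chlorophyll breakdown 3 rose and 1 fell (2 fell without Col 27 °C replicate 3). Alternative respiration had 4 of 5 genes lower, and 2 without Col 21 °C replicate 1.

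Heat shock factors were called higher about as often as genes at large. Of 16, 8 rose (50%, against 37.8% of all genes) and 3 fell, with 7 and 1 without Col 27 °C replicate 3 and 7 and 5 after median-ratio rescaling. HSFA3, a factor of the later heat response, rose by 1.76 ± 0.13, while HSFA6A fell by 1.44 ± 0.19. Only 5 of 11 small heat shock proteins were expressed enough to be tested, of which 3 rose. One of these, AT1G07400 (0.82), was not called without Col 21 °C replicate 1 (0.67), Col 27 °C replicate 1 (0.65) or Col 27 °C replicate 2 (0.76, adjusted p = 0.0594). AT5G51440, an HSP20-like chaperone, was at 2.72, 2.99 and 1.85 TPM against 13.7, 13 and 13.1 TPM. Endoplasmic reticulum folding genes fell in 9 of 16 cases and rose in 3. BIP2, a chaperone of that compartment with the close copy BIP1, was at 179, 166 and 164 TPM against 87.4, 92.6 and 67.4 TPM (-1.04 ± 0.12; adjusted p = 4.21e-06). IRE1A, the stress sensor of the same compartment, rose from 21.1, 21.2 and 22.3 TPM to 50.8, 54.0 and 53.2 TPM (1.25 ± 0.06; adjusted p = 1.29e-09), as did the factor BZIP28 by 0.83 and the calreticulin CRT3 by 0.34, while the sensor IRE1B (0.14) and the factor BZIP60 (-0.10) were not called.

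Cold-regulated genes fell in 7 of 12 cases and rose in 1, COR47 (0.36), with 2 higher without Col 27 °C replicate 1. Of 10 fatty acid desaturases 4 rose and 3 fell. FAD8, the plastid desaturase known to be unstable in warmth, fell from 75, 79.1 and 81.1 TPM to 23.7, 21.4 and 22 TPM (-1.76 ± 0.06; adjusted p = 1.88e-10), while ADS1 rose by 2.02 and FAD2 by 0.73. Of 14 wax genes 9 rose and 2 fell (1 without Col 21 °C replicate 1 or Col 27 °C replicate 3), led by the regulator MYB96 (1.0 ± 0.12), though the alkane-forming CER1 fell by 0.40. Under the other scalings 6 or 7 wax genes rose and 2 or 3 fell. Catalases, superoxide dismutases and ascorbate peroxidases had 6 of 16 higher and 5 lower, CAT3 rising by 1.16 ± 0.05. Of 6 phosphate starvation genes 2 rose (3 without Col 27 °C replicate 3) and 2 fell, SPX1 rising by 1.46.

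Genes of DNA replication fell in 16 of 18 cases and rose in 0 (median -0.59). PCNA1, the sliding clamp of the replication fork, was at 41.2, 38.5 and 37.6 TPM against 14.8, 16.5 and 13.9 TPM (-1.32 ± 0.11; adjusted p = 1.37e-07), and TSO2, a ribonucleotide reductase subunit, fell by 1.24. Mitosis and cytokinesis moved less, with 13 of 21 lower and 1 higher (median -0.28), CYCB1.1 falling by 0.80 and CYCB2.3 rising by 0.77. Leaving out any single wild-type library left 10 or 11 of these genes lower. Markers of the stomatal lineage gave 3 of 10 lower and 2 higher, their summed level being 131 to 136 TPM against 145 to 159 TPM. The falls numbered 2 without replicate 2 or 3 of either temperature. SPCH and EPF2, which act at the first divisions, fell by 0.60 and 1.01, and the guard cell genes FAMA and KAT1 rose by 0.65 and 0.70. Seed storage markers were low, with 2 of 6 tested and a sum of 19.1 to 28.4 TPM against 33.5 to 47.3 TPM. The part of these cell types in the results was not tested.

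Splicing regulators rose. Of 21 SR proteins and glycine-rich RNA-binding proteins 15 rose and 2 fell (median 0.70). GRP7, a clock-controlled RNA-binding protein, went from 2263, 2216 and 2302 TPM to 5612, 5695 and 6042 TPM (1.35 ± 0.06; adjusted p = 5.70e-10). RS2Z33 went from 68.6, 64.0 and 65.6 TPM to 191, 195 and 191 TPM, and SCL33 rose by 1.62. RSZ22 and RSZ22A fell by 0.36 and 0.25.

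For H2A.Z and the FVE-HDA9 complex, 7 of 16 genes rose and 5 fell, and the median of 0.05 changed sign with the scaling. The falls numbered 4 without Col 21 °C replicate 2, Col 27 °C replicate 2 or Col 27 °C replicate 3. The 3 H2A.Z histone genes did not move together. HTA9 was at 219, 197 and 199 TPM against 305, 308 and 302 TPM (0.57 ± 0.06), while HTA11 was at 80.6, 69.7 and 75.6 TPM against 45.1, 46.6 and 42.2 TPM (-0.74 ± 0.08; adjusted p = 3.21e-06) and HTA8 fell by 0.66. INO80, a remodeller that can evict H2A.Z, rose from 23.6, 25 and 23.1 TPM to 50.6, 54.1 and 53.1 TPM (1.1 ± 0.06; adjusted p = 3.23e-09). SWC6 and ARP6 of the depositing SWR1 complex rose by 0.59 and 0.43, and its catalytic subunit PIE1 was not called (-0.04). These are transcript levels and say nothing of H2A.Z on chromatin.

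Gains and losses of mean TPM compare genes whose spans differ, introns included, and are given as a description of the table. The 5 largest gains were GRP7, LHCB1.5, TIP1.2, TIP2.1 and AT2G45180 (of the lipid-transfer family), and the 5 largest losses LHCB1.3, RBCS1A, LHCB1.2, OEP6 and THI1. OEP6, an outer envelope protein of the chloroplast, was at 3657, 3885 and 3908 TPM against 1120, 993 and 1138 TPM (-1.82 ± 0.06; adjusted p = 6.11e-11). THI1, of thiamine synthesis, fell by 0.68 ± 0.05. In all, genes called higher gained 17.5% of the total TPM, of which genes changed at least 2-fold made up 7.39 points, and genes called lower lost 17.5%, of which 4.67 points. Every library adds up to 1000000 TPM, so gains and losses over all genes must balance. The equal totals therefore do not show a transfer between genes. The share of genes called higher rose from 27.0% in the shortest of 5 equal classes of gene span to 50.2% in the longest, and the share called lower fell from 32.7% to 18.1%. Across chromosomes the share called higher was 37.4% to 38.1%.

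In fve-4, 7695 of the same genes (40.1%) were called between 27 and 21 °C. The wild-type response was compared with it by the interaction, the difference between the 2 changes, which was called for 6436 of the 19208 genes (33.5%). Of the 1076 genes at least 2-fold higher in wild type, 801 had a significantly smaller change in fve-4 and 7 a larger one, with median changes of 1.26 in wild type and 0.63 in fve-4. Of the 760 at least 2-fold lower, 574 changed less in fve-4 and 2 more, with medians of -1.26 and -0.43. These genes were chosen by their change in wild type, a choice that favours a smaller change in the other genotype. Among the 20 genes with the largest changes the interaction was called for 19, LHCB1.1 being the exception with a difference of -0.09 (adjusted p = 0.554).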

How the data were processed

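The 12 RNA-seq libraries of whole seedlings fall into 4 groups of 3, by genotype and temperature. The deposited values are TPM, which the authors computed from reads and gene length. The column headers call them gene counts, yet every column adds up to 1000000. The submitters' processing notes list the build TAIR10 and the tools DESeq2 1.26.0, HISAT2 2.1.10 and fastp 0.20.1, without their role or order. The read counter and the strand setting are not given in the sources used here, so overlapping and antisense genes are uncertain. Whole reads came out of the TPM for 99.98% of 23666 genes (tolerance 0.01), which gave the depths.

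One limma 3.58.1 model (R 4.3.3) of the 4 group means was fitted to log2(TPM + 1) of all 12 libraries, with 8 residual degrees of freedom, on the 19208 genes at 1 TPM or more in at least 3 wild-type libraries. All tests were two-sided, and every adjusted p comes from limma. On simulated libraries with 17894 genes and 200 changed, 54% of 1.5-fold and 97% of 2-fold changes of the warm response were called, with 7 false calls. That is far fewer changed genes than here, so these shares need not carry over.

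The comparison, the 55 gene lists and the tests were chosen with earlier results of these data known. Genes were named by a rule: the 10 largest rises and falls (called, with a symbol, at least 5 TPM in the higher group, no overlap), up to 3 per list and direction, the 5 largest gains and losses of mean TPM, genes under 0.5 TPM in one group and at least 5 in the other, and the 5 of at least 10 TPM that varied most at 27 °C. List members named beyond that were chosen for their roles after their values were seen. RefSeq's TAIR10.1 annotation supplied symbols, products and promoters (250 bases) and matched 99.24% of the identifiers, and no coordinate of the authors' files was used. Python 3.11.15 with numpy 2.4.6, pandas 2.3.3, scipy 1.17.1, matplotlib 3.10.9 and Biopython 1.88 prepared tables, promoters and figures. Alternatives for the pseudocount, filter, scaling, variance prior, replicate block, libraries, threshold and promoter length were run. Samples with mannitol, which the protocol mentions, were not analysed here, and 1 root marker is counted but not reported by name.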

Additional observations from a re-analysis of the deposited data

Results flagged for a closer look

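For 19 of the 20 genes with the largest changes in wild type, the warm response differed between the genotypes by the interaction test of limma. The values below are the fve-4 response less the wild-type response (log2, SE in brackets where given), so a negative value is a smaller rise in fve-4 and a positive one a smaller fall. These genes were chosen for their change in wild type.

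Among the rises the difference was -3.47 for DIN1 (SE 0.33) and -2.88 for ASN1 (SE 0.33). In both the genotypes stood further apart at 21 °C than at 27 °C. ASN1 stood at 4.71 TPM in wild type and 43.3 ± 19.4 TPM (SD, n = 3) in fve-4 at 21 °C, and at 218 and 219 TPM at 27 °C. DIN1 stood at 22.2 and 246 TPM at 21 °C and at 682 and 651 TPM at 27 °C. For the growth regulators the warmed level was lower in fve-4. The difference was -1.39 for PIF4, -1.72 for IAA29, -1.39 for SAUR22, -1.76 for PKS4, -1.85 for COL5, -0.87 for LUX, -1.52 for RTFL21 and -2.77 for FLP1. FLP1 reached 57.4 TPM in warmed wild type and 4.53 ± 2.4 TPM in warmed fve-4.

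Among the falls, 3 genes were not called lower in fve-4. CYP79F1 differed by 6.04 (SE 0.49), at 21.6 ± 12.5 and 25.8 ± 4.28 TPM in fve-4 at 21 and 27 °C. IPMI1 differed by 4.66, at 40.5 and 38.5 TPM in fve-4. CYP82C4 differed by 5.09 (SE 0.31) and rose in fve-4 from 9.29 to 15.4 TPM. All 3 were lower in fve-4 than in wild type at 21 °C and higher at 27 °C. The anthocyanin genes LDOX (2.59), DFR (1.79) and GSTF12 (1.55) and the cold genes COR15A (1.60), KIN1 (1.47) and COR15B (0.75) fell in both genotypes, less in fve-4. LHCB1.1, from 2363 to 48.9 TPM in fve-4, was the single gene of the 20 with no call (-0.09, adjusted p = 0.554). The calls of FLP1 (-2.24 and -1.96), RTFL21 (-1.78 and -1.73) and SAUR22 (-1.18 and -1.19) were lost by limma-voom on recovered reads and with a pseudocount of 0.1, at differences of the same sign. That of RTFL21 was also lost without Col 21 °C replicate 3 (-1.28). That of COR15B was lost with a pseudocount of 0.1 (0.86), no filter (0.75), quantile normalization (0.53), no variance trend (0.75) and the replicate block (0.75), and without any of the single libraries (0.62 to 0.78) except Col 27 °C replicate 3.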

How the results depend on the processing

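Calls higher and lower numbered 5992 to 7272 and 3918 to 6048 over the alternative settings, and 6643 to 7074 and 4429 to 4829 when each wild-type library was left out. Genes at least 2-fold higher and lower numbered 1059 to 1122 and 643 to 874 without single libraries. A pseudocount of 5 cut them to 580 and 379, since it shrinks the change of low genes, and limma-voom gave 1354 lower; the cause of the latter was not tested. The interaction was called for 3816 genes at an adjusted p under 0.01, against 6436, and for 5552 to 6092 without single libraries. With the replicate block 7262 genes were called higher and 4935 lower. The deviations of libraries with the same number had correlations of 0.030, -0.009 and 0.063 between the temperatures, all under 0.1, so the numbers were not taken to pair libraries. Of the named genes' changes over all settings, 4477 kept direction and side of the threshold, 88 lost the call, 3 gained one and 0 reversed. Most of these genes were named for large called changes in the same libraries, a choice that favours keeping the call. Of 55 list medians 45 kept their sign over the scalings and without Col 27 °C replicate 3. Counted per setting, 161 list medians stayed within 0.10 of the reported value and 59 did not.

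With promoters of 150 bases all motif shares fell, as a shorter window must hold fewer matches. The G-box stood in 8.41% of raised and 5.05% of uncalled promoters, the E-box in 11.6% of raised, 7.89% of lowered and 6.83% of uncalled, TATCCA in 11.3%, 6.71% and 8.4%, the I-box in 11.3%, 9.21% and 7.25%, and site II in 9.07% of raised and 13.2% of uncalled promoters. Their order between raised and uncalled genes was the same as with 250 bases.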

Other observations

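Gene families defined by the words of the annotated product, a grouping made after the files were seen, hold groups not described above. Products that name a ribosomal protein fell together. Of 307 tested 245 fell and 20 rose (background 25.8% lower and 37.8% higher), with a median of -0.56, and between -0.67 and -0.52 under the other scalings. Their summed level went from 78200 to 83500 TPM at 21 °C to 53700 to 55500 TPM at 27 °C. emb2386, a protein of the large subunit, was at 1071 ± 71.9 TPM and 643.8 ± 21.9 TPM (SD, n = 3). RPL18AA was the exception with the largest rise, from 18.5 to 40.8 TPM. Of 41 histone genes, which have near-identical copies, 31 fell and 5 rose (median -0.70), and the sum went from 7100 to 7510 TPM to 4580 to 4910 TPM. HTB1, an H2B histone, fell from 208 to 86.5 TPM, and HIS1-3, a linker histone induced by drought, rose from 42.0 to 105 TPM.

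F-box proteins, which select other proteins for degradation, rose in 102 of 162 tested cases and fell in 7 (median 0.46), with 491 more of the family too low to test. SAUR proteins rose in 31 of 54 and fell in 6 (median 0.84), although these small genes lie in arrays of near-identical copies. Of 71 genes of the chloroplast genome 33 were called higher (46.5%, against 37.8% of all genes) and 3 lower (median 0.47). Without Col 21 °C replicate 3 the higher calls numbered 16 and without Col 27 °C replicate 3 they numbered 21, as after quantile normalization, so this count rests on single libraries. The summed levels overlapped, at 1770 to 2520 TPM at 21 °C and 2340 to 2560 TPM at 27 °C, on libraries whose handling of transcripts without a poly(A) tail is not given in the sources used here. Pentatricopeptide repeat proteins, which process organelle RNA, had 61 of 277 higher and 53 lower with a median of -0.008.

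The genes that varied most between the warmed libraries, among those of at least 10 TPM there, were IRT1, AT2G15029, AT2G46140, THAS1 and RHS19, and in each of them replicate 3 was the lowest. THAS1, a thalianol synthase of roots, was at 16.2, 13.2 and 4.33 TPM, and AT2G46140, a late embryogenesis abundant protein, at 14.7, 11.9 and 3.61 TPM.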
